A study of Mus musculus with 13 samples.

Results

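Sirena1 knockout and wild-type mouse oocytes were compared at the germinal vesicle (GV) stage, in which a fully grown oocyte is held in meiotic prophase with its nuclear envelope intact. The 6 libraries of that stage were taken out of 13 in the series, by the genotype and stage in their labels, with all genes of the count table kept. They were 3 Null and 3 wild-type (WT) libraries, each of polyadenylated RNA from a pool of 25 oocytes. The other 7 libraries, from matured metaphase II (MII) eggs, were used here for the shared estimate of the spread and for one test of the difference between stages. Per the labels' protocols, the Null animals carry a deletion of the lncRNA's promoter, made with Cas9 and a pair of guide RNAs in C57Bl/6 zygotes and bred on for 2 generations with C57BL/6NCrl. The GV oocytes of both genotypes were collected in M2 medium with 0.2 mM IBMX, a phosphodiesterase inhibitor that keeps oocytes from resuming meiosis, and carried 0.2 pg of Renilla luciferase RNA as a spike-in. The age of the females, the number of founders and the deleted interval are not stated in the sources used here. The strain is labelled C57BL6/J while the protocols name both C57Bl6/J and C57BL/6NCrl, so genotype and substrain background cannot be told apart. Nothing in the labels says that replicates came from separate animals, so p-values measure only the spread between these pools, which may be technical.

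A fully grown oocyte is close to transcriptionally silent, and its RNA is a store that is kept, translated or destroyed on schedule. Mouse oocytes have an unusually active RNA interference pathway. Double-stranded RNA, often formed where an antisense pseudogene copy meets its parent mRNA, is cut by Dicer into endogenous small interfering RNAs that direct Argonaute 2 to matching transcripts. Sirena1 is an abundant lncRNA of these cells. Elob, the mRNA of Elongin B, an adaptor of cullin-RING ubiquitin ligases, is among the mRNAs that oocyte endo-siRNAs have been described to target. Mitochondria of the oocyte all come from the mother's germ line, and their genome encodes 13 respiratory-chain proteins. The series title links the lncRNA with post-transcriptional regulation and with where mitochondria lie in the oocyte.

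The sequences before the start sites of Sirena1 and of Elob, a gene that rose, are shown to compare the letters they hold. The deleted interval is not known, so how much of the Sirena1 window it takes in cannot be said. The 250 bases before each RefSeq start site are given 5′ to 3′ on the gene's strand in GRCm38.p6, with TATAAA or GGGCGG on either strand in capitals. They cover chr7:46975912-46976161 (minus strand) for Sirena1 and chr17:23829110-23829359 (minus strand) for Elob.
Sirena1: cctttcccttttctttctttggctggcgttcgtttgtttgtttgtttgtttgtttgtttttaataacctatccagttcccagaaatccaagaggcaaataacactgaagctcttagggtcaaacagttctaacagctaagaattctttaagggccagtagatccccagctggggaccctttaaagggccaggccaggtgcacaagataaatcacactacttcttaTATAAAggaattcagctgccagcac
Elob: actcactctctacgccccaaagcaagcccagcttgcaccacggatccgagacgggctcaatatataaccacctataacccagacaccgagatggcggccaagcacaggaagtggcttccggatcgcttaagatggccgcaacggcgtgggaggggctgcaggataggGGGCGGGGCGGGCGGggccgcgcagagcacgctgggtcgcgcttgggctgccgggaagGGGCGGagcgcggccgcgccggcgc
The Sirena1 window had a GC content of 42.4% and 1 TATAAA, whose first base lay 25 bases before the start, and no GGGCGG. The Elob window had a GC content of 68.0%, 4 GGGCGG matches, some of them overlapping, and no TATAAA. Among 32851 windows of that length, 12.4% held TATAAA and 32.7% held GGGCGG, and the median GC content was 52.4%. These matches describe letters and no binding was measured.

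The libraries were deep and 1 Null library stood apart. Total counts ran from 33360126 to 38637420 in the Null and from 36808560 to 41285507 in the WT libraries, so that 3 counts, taken as the detection limit, equal 0.0727 to 0.0899 CPM, the count scaled to library size. This limit covers counting error only. Between replicates, the chi-square of counts per degree of freedom was 5.4 to 8.68 in WT, 38.8 and 29.6 for Null replicate 1 against replicates 2 and 3, and 11.1 between the latter. Oocyte markers were abundant in every library: all 12 were tested and none passed the test, and their summed level was 13340 to 14530 CPM in Null and 12900 to 13850 CPM in WT. Cumulus and granulosa cells are the somatic cells that surround the oocyte. The summed level of their 25 listed markers was 116, 790 and 323 CPM in Null replicates 1, 2 and 3 and 159, 138 and 117 CPM in WT. Null replicates 2 and 3 thus lay above every WT library and Null replicate 1 lay beside the lowest of them. Much of the sum in the lower libraries came from Nr5a2 and Cyp19a1, which varied less between libraries than the sum. Nr5a2 took 55.1, 88.7 and 69.45 CPM in Null and 58.5, 59.96 and 58.4 CPM in WT. Cyp19a1 took 27.25, 27.4 and 31.1 CPM against 33.1, 30.0 and 26.4 CPM. In MII eggs Nr5a2 still had 1804 to 2462 counts and Cyp19a1 850 to 1240. The cumulus marker covariate used below rests on the same markers. None of the 21 tested markers passed the test, 20 of 21 had a log2 fold change above 0, and the median was 1.84 against 0.018 over all genes. With Null replicate 1 as the lone Null library the median was -0.31.

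**Figure D1:**
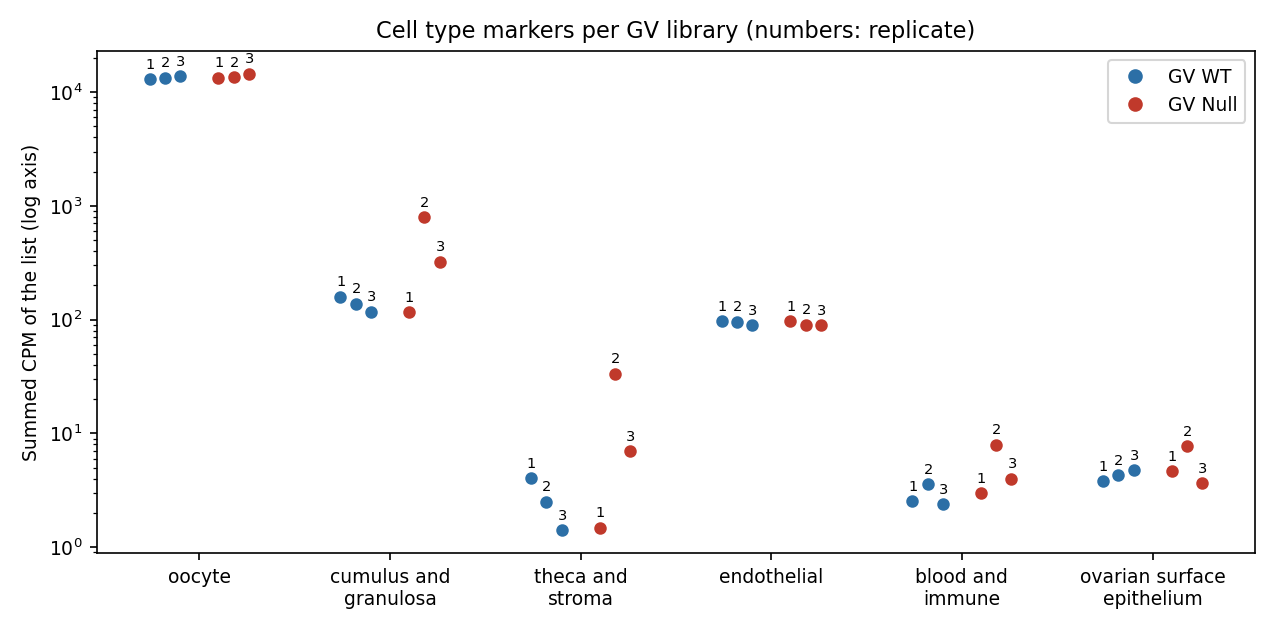
Summed level in CPM of the listed cell type markers in each GV library, on a log axis, with Null and WT replicates as separate points. Oocyte markers were level between genotypes, while cumulus and granulosa markers ran from 116 to 790 CPM in Null and from 117 to 159 CPM in WT.

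Single markers differed in their order of libraries. Lhcgr, the luteinizing hormone receptor, had 0, 518 and 338 counts in Null replicates 1, 2 and 3 and 19, 5 and 2 in WT. Cyp11a1, which starts steroid synthesis from cholesterol, had 27, 3407 and 772 counts in Null and 242, 63 and 52 in WT. Fshr, the receptor for follicle-stimulating hormone, had 24, 109 and 72 counts in Null and 58, 18 and 17 in WT. These 3 mRNAs were highest in Null replicate 2. Others went another way: Ptgs2, the inducible prostaglandin synthase, had 105, 62 and 52 counts in Null and 58, 51 and 54 in WT. Has2, which makes hyaluronan, had 62, 34 and 27 counts in Null and 32, 52 and 46 in WT. Both were highest in Null replicate 1. Cyp19a1, the aromatase that makes oestrogen, had 1053, 931 and 1036 counts in Null and 1366, 1105 and 998 in WT, which overlapped. Theca and stroma markers summed to 1.48, 33.5 and 6.95 CPM in Null and 4.02, 2.499 and 1.40 CPM in WT, with Cyp17a1, the theca enzyme of androgen synthesis, at 0, 18 and 32 counts against 1, 0 and 0. Endothelial markers (88.8 to 96.5 CPM in Null, 88.8 to 96.2 CPM in WT), surface epithelium markers (3.63 to 7.71 against 3.78 to 4.72 CPM) and blood markers (2.98 to 7.91 against 2.38 to 3.56 CPM) were compared in the same way. The endothelial sum was mostly Pecam1, at 2402 to 3076 counts in Null and 2638 to 3160 in WT. Cdh5, the endothelial cadherin, had 0, 40 and 13 counts in Null and 4, 0 and 0 in WT, and Emcn had 0, 9 and 7 against 4, 1 and 0. Kdr, a receptor for vascular endothelial growth factor, had 82, 88 and 89 counts in Null and 151, 145 and 123 in WT, without overlap and without passing the test (adjusted p = 0.67). Endothelial markers thus did not share 1 pattern. The haemoglobin mRNA Hbb-bs had 1, 12 and 9 counts in Null and 1, 1 and 0 in WT. No listed marker was at 0 in all 6 libraries. In pools such as these, more cells of a type and more RNA per cell cannot be told apart, and the part of the somatic RNA in the results below was not tested except where a value is given.

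The deletion removed nearly all of the lncRNA. Sirena1 (listed as C86187, ENSMUSG00000110001, a lncRNA gene on chromosome 7 from 46967710 to 46975911) stood at 26.4, 23.3 and 24.7 CPM in the Null libraries and at 2912, 3015 and 3092 CPM in the WT libraries. These levels rest on 888 to 1076 counts per Null and 120302 to 130035 counts per WT library, and the groups were far apart. The fall was 121-fold (log2 fold change -6.92, SE 0.11, adjusted p = 2.77e-18, edgeR's quasi-likelihood test with Benjamini-Hochberg adjustment, as for every adjusted p below).

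A pseudogene next to it fell as well, and 5 other neighbours did not pass the test. Gm19248 (ENSMUSG00000110416, chromosome 7 from 46967147 to 46967617) lies 92 bp past the 3′ end of Sirena1. It had 1, 3 and 0 counts in Null and 26, 21 and 22 in WT (log2 fold change -3.87, SE 0.67, adjusted p = 0.0351), and it passed in 8 of the 21 settings in which it was tested. Whether these few reads belong to a longer Sirena1 transcript was not tested. Tsg101, a subunit of the ESCRT machinery that sorts membrane proteins, stood at 60.6, 59.0 and 65.5 CPM in Null and 62.1, 60.4 and 63.0 CPM in WT. Uevld stood at 14.5, 14.4 and 14.1 CPM against 12.0, 10.7 and 11.8 CPM, without overlap (log2 fold change 0.32). Spty2d1, a histone chaperone, stood at 110, 88.7 and 100 CPM against 119, 115 and 114 CPM (log2 fold change -0.22, adjusted p = 0.709). Gm9999, a lncRNA gene on the promoter side (chromosome 7 from 46976632 to 46987803), stood at 2.04, 2.02 and 2.83 CPM in Null and 3.22, 3.73 and 3.07 CPM in WT. Its Null libraries lay wholly below WT and it did not pass (log2 fold change -0.54, SE 0.27, adjusted p = 0.755). Gm32031, another lncRNA gene, had 14, 12 and 16 counts in Null and 6, 18 and 15 in WT. Of the 7 genes examined here, the lncRNA and the adjoining pseudogene passed, against 0.0546% of all genes tested.

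Across the transcriptome few genes passed. Of 20143 genes tested, 11 passed an adjusted p of 0.05 (0.0546%), 5 higher (0.0248%) and 6 lower (0.0298%) in Null. The median log2 fold change over all genes was 0.018. At an unadjusted p under 0.05 there were 1342 genes (6.66%), 872 higher and 470 lower. The 3 Null and 3 WT libraries did not overlap for 12.8% of genes, 6.83% higher and 5.93% lower. The count depends on single libraries: it was 139 without Null replicate 1 (0.666% of genes tested). It was 6 without Null replicate 3 (0.0289%), without WT replicate 1 (0.0287%) or without WT replicate 2 (0.0288%). Sirena1 alone passed where Null replicate 1 was the only Null library (0.0046%). DESeq2 called 27 genes (0.134%) and a fit of the 6 GV libraries called 12 (0.0609%).

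**Figure D2:**
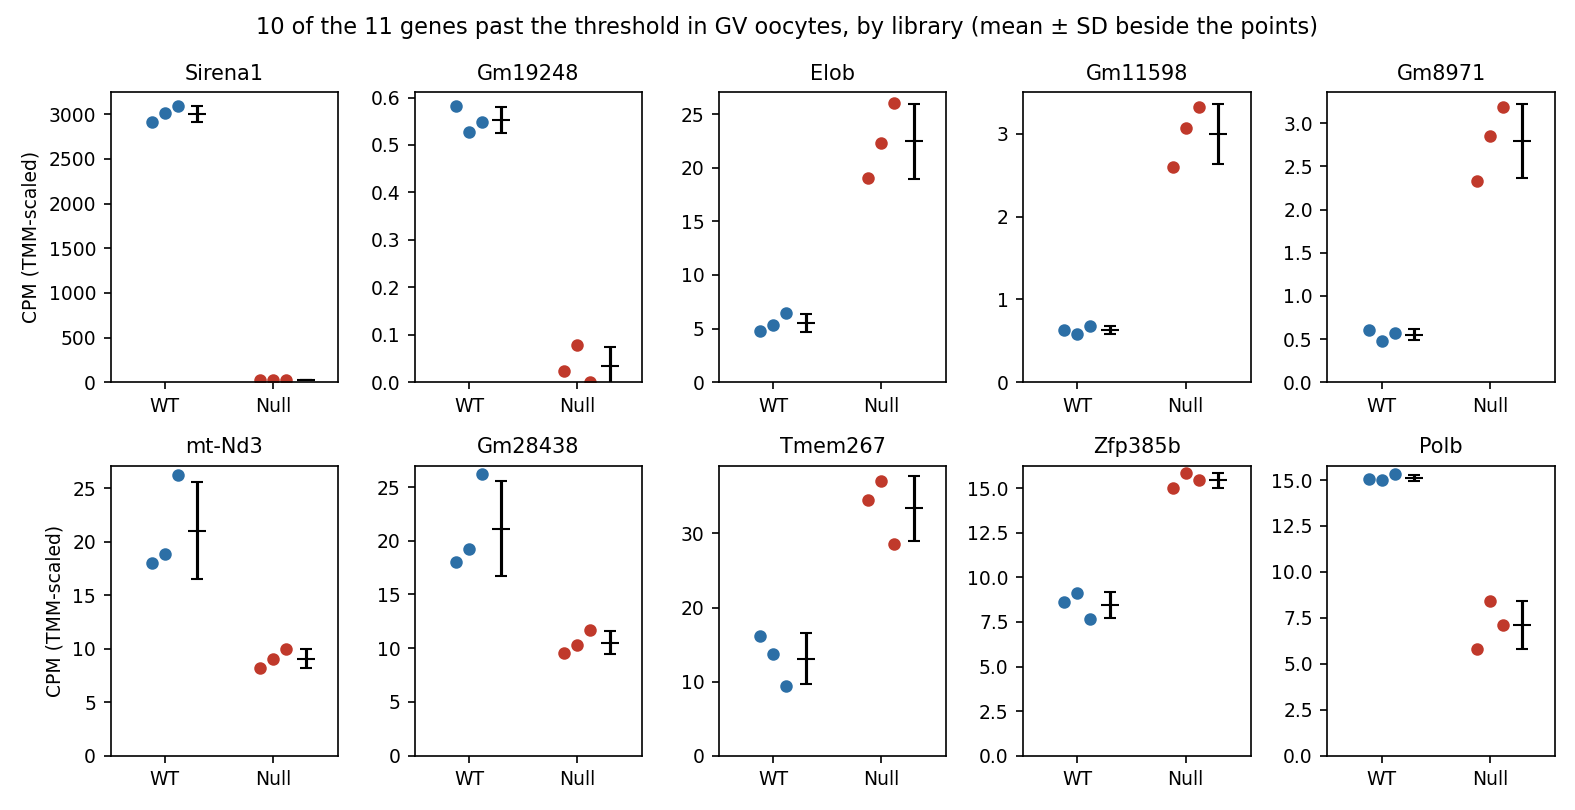
Level in CPM, on a linear axis from 0 for each gene, of 10 of the 11 genes past the threshold in GV oocytes. Points are libraries (n = 3 per group) and bars are mean ± SD, cut at 0. In each of the 10 genes all 3 Null libraries lie on one side of all 3 WT libraries, with Sirena1 at about 24.8 against 3006 CPM and Elob at 22.5 against 5.51 CPM.

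**Figure D3:**
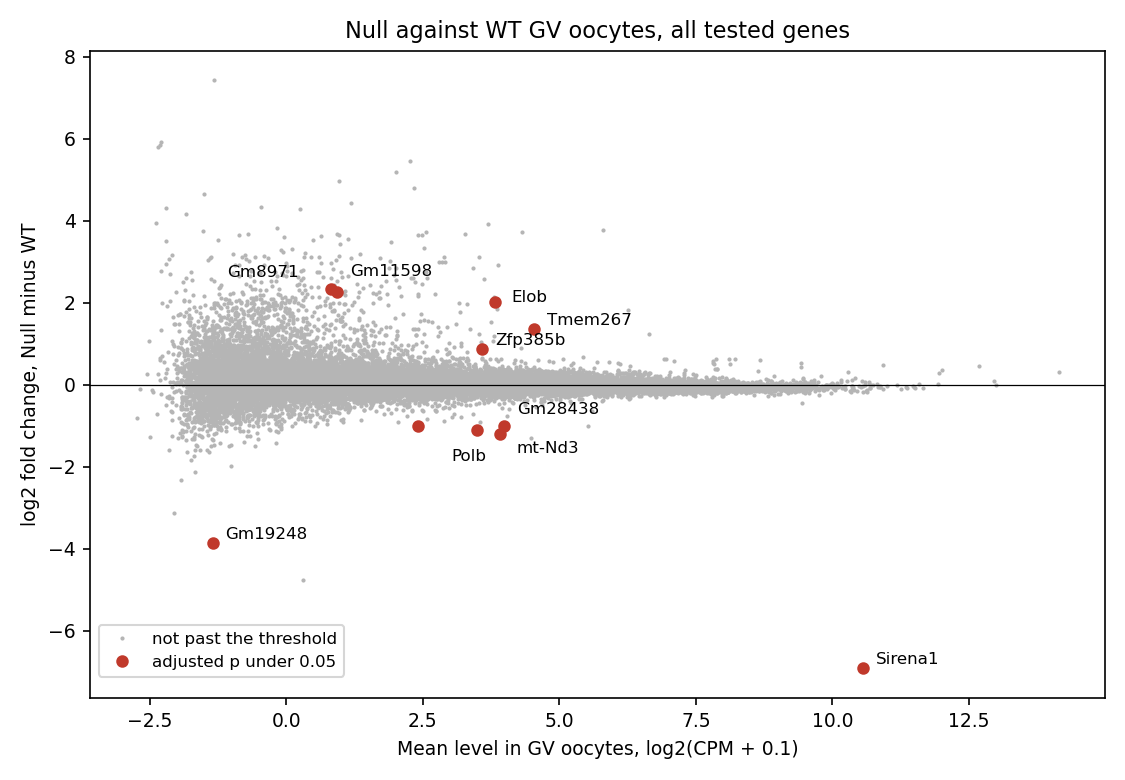
Log2 fold change (Null minus WT) against mean level, as log2 of CPM with a small constant added, for the 20143 genes tested in GV oocytes, with the genes past the threshold marked and 10 of them named. Sirena1 lies at -6.92, Elob at 2.03, and the bulk of genes around the median of 0.018.

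Elob rose. The mRNA (ENSMUSG00000055839, chromosome 17 from 23824740 to 23829109) stood at 19.06, 22.30 and 26.00 CPM in the Null libraries and at 4.77, 5.31 and 6.44 CPM in WT. The lowest Null library was thus well above the highest WT library. The means of 22.5 ± 3.47 and 5.51 ± 0.85 CPM (SD, n = 3) differed 4.08-fold (log2 fold change 2.03, SE 0.23, adjusted p = 0.000773). The call held in 21 of 22 settings, with log2 fold changes from 1.79 to 2.15, and was lost only where Null replicate 1 stood alone. In MII eggs Elob stood at 4.27 ± 1.63 CPM in Null (n = 4) and 0.851 ± 0.0712 CPM in WT (n = 3), and the difference between stages was 0.31 (SE 0.36, adjusted p = 0.999).

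Pseudogenes with low counts changed by folds near that of Elob. Their parent genes are not stated in the sources used here, and reads shared with a near-identical copy would make their counts uncertain. Gm11598 (ENSMUSG00000082456, chromosome 11 from 100243260 to 100243693) stood at 2.60, 3.07 and 3.33 CPM in Null and 0.627, 0.576 and 0.673 CPM in WT, a 4.77-fold rise (log2 fold change 2.25, SE 0.31, adjusted p = 0.00336). Gm8971 (ENSMUSG00000114321, chromosome 14 from 57363381 to 57363778) stood at 2.33, 2.86 and 3.19 CPM against 0.605, 0.476 and 0.574 CPM, a 5.03-fold rise (log2 fold change 2.33, SE 0.40, adjusted p = 0.0329). Neither pseudogene's Null libraries overlapped its WT libraries, but Gm8971 passed in only 12 of 21 settings and Gm11598 in 17 of 21. Gm9238 (chromosome 12) had 88, 91 and 103 counts in Null and 24, 21 and 29 in WT (adjusted p = 0.0567), and Gm11401 (chromosome 11) had 60, 75 and 75 against 18, 15 and 21 (adjusted p = 0.0931). These 2 were named after their values were seen, and they passed in the fit of the 6 GV libraries alone (adjusted p = 0.0124 and 0.03).

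Counts of these pseudogenes were also set against those of Elob in the same library. Gm9238 had 0.113, 0.107 and 0.109 counts per Elob count in the Null libraries and 0.113, 0.0991 and 0.112 in WT. Gm11401 had 0.0773, 0.0881 and 0.0793 against 0.0845, 0.0708 and 0.0814. Gm11598 had 0.137, 0.137 and 0.128 against 0.131, 0.108 and 0.105. Gm8971 had 0.122, 0.128 and 0.123 against 0.127, 0.0896 and 0.0891. In each of the 4 ratios the GV groups overlapped. In MII eggs, where Elob counts are lower, the ratio ran from 0.0353 to 0.101 for Gm9238, from 0 to 0.0537 for Gm11401, from 0.04 to 0.134 for Gm11598 and from 0.08 to 0.296 for Gm8971. Of the 10 count ratios computed here the smallest adjusted p was 0.25, since 3 against 3 libraries cannot give a p below 0.1. Whether the reads belong to the pseudogenes or to Elob was not tested.

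Elobl, an oocyte paralog of Elob (chromosome 11 from 88964658 to 88966931), is far more abundant. It stood at 4757, 4511 and 4628 CPM in Null and 3584, 3567 and 3712 CPM in WT. Every Null library was above every WT library, yet the gene did not pass (log2 fold change 0.36, SE 0.19, adjusted p = 0.804) and passed in 1 of 22 settings. Elob had 0.00486 ± 0.00081 counts per Elobl count in Null and 0.00152 ± 0.000203 in WT. Among the 19 tested subunits of Elongin and cullin ligases, Elob was the member called, against 0.0546% of all genes tested. Of the 19, 9 lay above 0, with a median of -0.03.

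RNA interference factors and other described targets did not pass. Of 18 RNA interference and microRNA factors, 5 had a log2 fold change above 0, with a median of -0.05. Ago2, the slicer of the pathway, stood at 29.8, 38.5 and 35.1 CPM in Null and 30.6, 32.2 and 31.8 CPM in WT, which overlapped. Elob was the single call among 7 described endo-siRNA targets, against 0.0546% of all genes tested. Of the 7, 2 lay above 0. Kifc1, a minus-end directed spindle motor, stood at 18.3, 17.1 and 18.6 CPM in Null and 21.3, 24.2 and 20.1 CPM in WT. Its groups did not overlap and it did not pass (adjusted p = 0.691). Kif4, a chromokinesin, stood at 426, 362 and 381 CPM against 419, 415 and 381 CPM. Of 18 tested genes of double-stranded RNA sensing and the interferon response, 11 lay above 0 (median 0.04) and none passed. Eif2ak2, the double-stranded RNA-activated kinase, stood at 1.06, 1.81 and 1.57 CPM in Null and 0.985, 1.03 and 0.574 CPM in WT.

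One mitochondrially encoded mRNA fell while the others lay on the other side of 0. mt-Nd3 (ENSMUSG00000064360) encodes a small membrane subunit of complex I, the entry point of electrons from NADH. It stood at 8.20, 9.04 and 9.95 CPM in Null and 18.0, 18.8 and 26.2 CPM in WT. The highest Null library was below the lowest WT library, and the means of 9.06 ± 0.87 and 21.0 ± 4.53 CPM gave a 2.32-fold fall (log2 fold change -1.21, SE 0.14, adjusted p = 0.000735). The call held in 20 of 22 settings. Reads shared with another gene, taken up below, would make the level of mt-Nd3 uncertain. Of the other 12 mitochondrial mRNAs none passed and all 12 had a log2 fold change above 0. The median of all 13 was 0.49, and in 7 the Null libraries lay wholly above WT, against 6.83% of all genes.

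**Figure D4:**
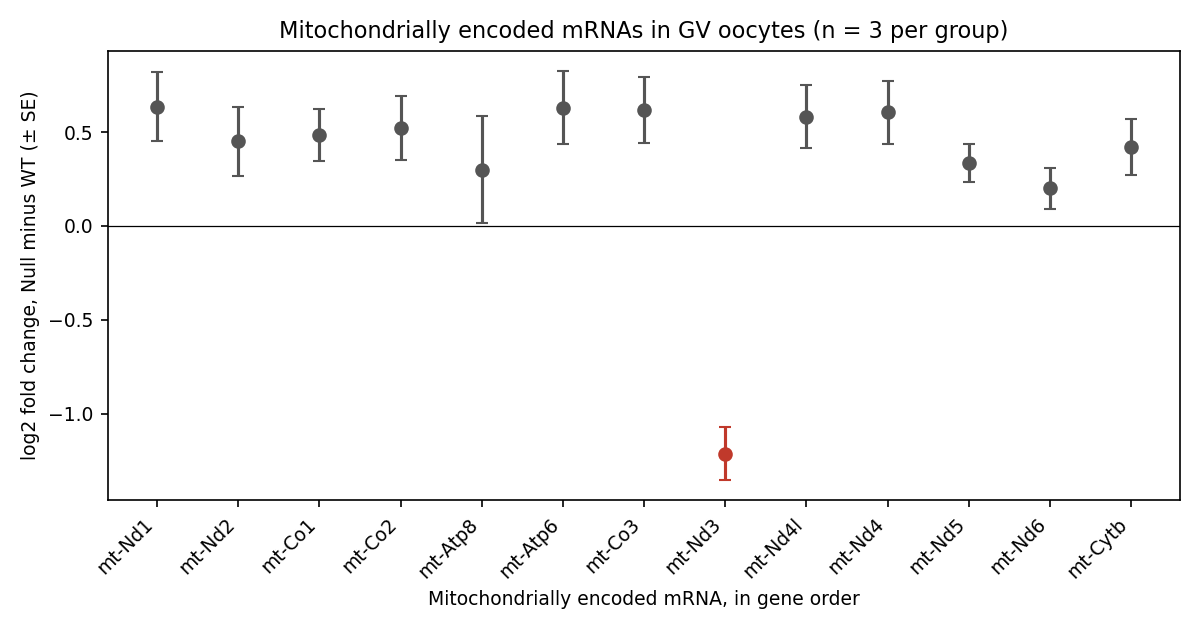
Log2 fold change (Null minus WT, GV oocytes) of the 13 mitochondrially encoded mRNAs in gene order, with SE bars. mt-Nd3 lies at -1.21 and the other 12 lie above 0, the highest at 0.64.

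The other mitochondrial mRNAs varied with the library. mt-Co1, the catalytic subunit of cytochrome c oxidase, stood at 1945, 2654 and 2193 CPM in Null and 1511, 1547 and 1796 CPM in WT. mt-Nd4, a proton-pumping subunit of complex I, stood at 381, 578 and 526 CPM against 320, 288 and 368 CPM. mt-Nd6, encoded on the other strand, stood at 50.5, 59.7 and 64.2 CPM against 52.6, 47.4 and 51.8 CPM. In mt-Co1 and mt-Nd4 Null replicate 2 was highest and Null replicate 1 nearest to WT. Together the 13 mRNAs took 0.463%, 0.673% and 0.589% of counts in Null and 0.39%, 0.375% and 0.449% in WT (exact two-sided permutation p = 0.1). The 2 mitochondrial rRNAs took 2.21%, 3.69% and 3.17% against 2.21%, 2.12% and 2.63% (p = 0.3, exact two-sided permutation). Null replicate 2, highest in both shares, was also highest in cumulus markers, and the median log2 fold change of the 13 mRNAs was 0.23 with Null replicate 1 as the lone Null library and 0.33 with the cumulus marker level as a covariate.

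Within a library, mt-Nd3 was low against its neighbours on the mitochondrial genome. mt-Nd3 lies between mt-Co3 and mt-Nd4l, and counts of one per count of another remove differences in mitochondrial RNA between libraries. mt-Nd3 had 0.0642, 0.0584 and 0.0638 counts per mt-Co3 count in Null and 0.199, 0.228 and 0.233 in WT (0.0622 ± 0.00325 against 0.22 ± 0.0181). The ratio was as low in Null replicate 1 as in the other Null libraries, and far from WT (exact two-sided permutation p = 0.1, the smallest possible). The ratio of mt-Nd4l to mt-Co3 was 0.216, 0.242 and 0.23 in Null and 0.249, 0.229 and 0.23 in WT, which overlapped (exact permutation p = 0.6). In MII eggs mt-Nd3 had 0.156, 0.201, 0.121 and 0.129 counts per mt-Co3 count in Null and 0.558, 0.459 and 0.443 in WT, again without overlap. The difference between stages in the mt-Nd3 effect was 0.15 (SE 0.18, adjusted p = 0.999).

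A tRNA gene and a pseudogene were looked at beside mt-Nd3. mt-Tr, the arginine tRNA gene that follows mt-Nd3, had 0, 1 and 2 counts in Null and 15, 8 and 9 in WT, and did not pass (adjusted p = 0.492). Gm28438 (ENSMUSG00000101939), whose position is not given in the tables used here, stood at 9.55, 10.3 and 11.7 CPM in Null and 18.0, 19.2 and 26.2 CPM in WT (log2 fold change -1.01, SE 0.14, adjusted p = 0.00263). It had 1.16, 1.14 and 1.17 counts per mt-Nd3 count in Null and 1.0, 1.02 and 0.998 in WT. These ratios did not overlap between the genotypes. In MII eggs they were 1.19, 1.23, 1.19 and 1.19 in Null and 1.03, 1.01 and 0.999 in WT, again without overlap. With counts near 1 for 1, reads shared between the 2 genes would make both levels uncertain, and Gm28438 is uncertain as a separate call. How reads were divided between mt-Nd3 and Gm28438 was not tested.

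Nuclear-encoded mitochondrial genes showed no call. Of 43 tested complex I genes 25 lay above 0 (median 0.04), and of 42 genes of complexes II to V 31 lay above 0 (median 0.11). Atp5g2, a subunit of the ATP synthase ring, stood at 44.4, 42.6 and 50.8 CPM in Null and 35.3, 33.0 and 40.6 CPM in WT, without overlap. Of 22 genes of mitochondrial fusion, fission and transport, 14 lay above 0 with a median of 0.03. Trak2, which links mitochondria to kinesin and dynein, stood at 37.2, 47.6 and 43.8 CPM against 28.8, 39.1 and 31.3 CPM, which overlapped. Opa1, the inner membrane fusion GTPase, stood at 109, 91.3 and 99.6 CPM against 114, 112 and 112 CPM, without overlap (adjusted p = 0.716). Of 21 genes of mitochondrial DNA transcription and maintenance, 10 lay above 0 (median -0.04), and of 18 genes of the integrated stress response and mitochondrial chaperones, 9 lay above 0 (median 0.02).

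Tmem267 and Zfp385b rose. Tmem267 (ENSMUSG00000074634, chromosome 13 from 119488086 to 119610459), which encodes a membrane protein, stood at 34.5, 37.1 and 28.6 CPM in Null and 16.2, 13.7 and 9.35 CPM in WT. The groups did not overlap and the rise was 2.55-fold (log2 fold change 1.35, SE 0.17, adjusted p = 0.00263). It passed in 19 of 22 settings, and did not pass in the fit of the 6 GV libraries alone (adjusted p = 0.217) or with a minimum of 1.5-fold. Tmem267 lies 78828 bp from Nnt, the proton-pumping transhydrogenase of mitochondria that carries a deletion in C57BL/6J. Nnt had 1, 5 and 4 counts in Null and 0, 0 and 0 in WT, all near the detection limit of 3 counts. In MII eggs Nnt had 0 counts in every library of both genotypes. Genes around Tmem267, chosen after their values were seen, did not pass: log2 fold changes were -0.09 for Paip1, 0.12 for 4833420G17Rik, 0.19 for Ccl28 and -0.07 for Hmgcs1. Of 7 tested genes listed as differing between C57BL/6 substrains, 4 lay above 0 (median 0.02) and none passed. Their log2 fold changes went both ways, from -0.35 to 0.38. The median and the count above 0 take no account of a direction expected for each gene, so they cannot decide on substrain background. The part of substrain background in the Tmem267 result was not tested.

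Zfp385b (ENSMUSG00000027016, chromosome 2 from 77410622 to 77817706), a zinc finger protein gene, stood at 15.0, 15.9 and 15.5 CPM in Null and 8.62, 9.10 and 7.68 CPM in WT. The 3 Null libraries were close together and above all WT libraries, a 1.82-fold rise (log2 fold change 0.87, SE 0.12, adjusted p = 0.00263). In MII eggs it stood at 17.7 ± 1.77 CPM in Null (n = 4) and 20.7 ± 1.98 CPM in WT (n = 3). It was the single gene among 20143 (0.00496%) whose effect differed between the stages (difference in log2 -1.09, SE 0.16, adjusted p = 0.0406). That call was lost with RLE scaling in edgeR, with the cumulus marker level as a covariate and in all but 1 of the fits that left out 1 library, whereas the GV rise itself held in 19 of 22 settings.

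Polb fell. DNA polymerase beta (ENSMUSG00000031536, chromosome 8 from 22628119 to 22653464) fills single-nucleotide gaps in base excision repair. It stood at 5.80, 8.41 and 7.09 CPM in Null and 15.1, 15.0 and 15.3 CPM in WT. The WT libraries were nearly equal and every Null library was below them, a 2.13-fold fall (log2 fold change -1.09, SE 0.18, adjusted p = 0.0165). The call held in 16 of 22 settings. Among its losses were the fits without Null replicate 3, without any 1 of the WT replicates and with a minimum of 1.5-fold. In MII eggs Polb stood at 3.09 ± 0.77 CPM in Null (n = 4) and 4.999 ± 0.23 CPM in WT (n = 3), and the difference between stages was 0.39 (SE 0.25, adjusted p = 0.999). Polb was the single call among 23 base excision repair genes, against 0.0546% of all genes tested. Of the 23, 9 lay above 0 (median -0.01). Mpg, a glycosylase that removes alkylated bases, stood at 0.614, 0.655 and 0.632 CPM in Null and 0.403, 0.326 and 0.374 CPM in WT, without overlap and without passing.

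Another locus lay far apart between the GV groups without passing the test. Gm47601 (ENSMUSG00000114496), named after its values were seen, had 5, 3 and 1 counts in Null and 98, 92 and 85 in WT. The adjusted p was 0.681 with all 13 libraries and 0.000461 in the fit of the 6 GV libraries. Of the MII Null libraries 3 had 0 counts and replicate 4 had 68, against 87, 82 and 159 in MII WT. The position of the gene is not given in the tables used here.

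Below the threshold, several genes of moderate level separated the groups. They were taken as those with the smallest p among genes that reached 5 CPM and did not overlap. Cblb, a ubiquitin ligase that dampens receptor signalling, stood at 6.19, 9.67 and 6.35 CPM in Null and 4.01, 3.06 and 3.62 CPM in WT (log2 fold change 1.05, adjusted p = 0.0931), and DESeq2 called it. Adss, which commits IMP to adenine nucleotide synthesis, stood at 651, 533 and 579 CPM against 795, 810 and 810 CPM (log2 fold change -0.45, adjusted p = 0.112), and DESeq2 called it too. Slc16a12, a monocarboxylate transporter of creatine, stood at 3.98, 3.59 and 5.17 CPM against 8.69, 6.82 and 7.03 CPM, and was also called by DESeq2. That the groups do not overlap is how these genes were chosen, and 12.8% of all genes meet it.

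Others of these genes had smaller differences. Aunip, a partner of Aurora A kinase, stood at 50.7, 47.0 and 45.1 CPM in Null and 60.5, 64.5 and 61.8 CPM in WT. Ppid, the cyclophilin 40 co-chaperone, stood at 22.5, 22.4 and 21.7 CPM against 28.4, 27.9 and 28.8 CPM. Edn1, endothelin 1, stood at 7.12, 6.39 and 6.84 CPM against 9.49, 10.2 and 9.53 CPM. In all 3 the libraries of a group lay close together, with log2 fold changes of -0.39, -0.35 and -0.52 and adjusted p values from 0.39 to 0.485. DESeq2 called all 3. Tbc1d19 (0.30), Kcnma1, a calcium-activated potassium channel (0.32), Zfp759 (0.38) and Gcc1, a golgin (0.67), had positive log2 fold changes. Sgo2b (-0.40), Plek (-0.48) and Trpc5os (-0.89) had negative ones, and DESeq2 called Trpc5os. Peg10, an imprinted retrotransposon-derived gene, stood at 6.11, 13.2 and 11.8 CPM against 4.95, 4.96 and 5.41 CPM, Lamp2, a lysosomal membrane protein, at 16.6, 27.9 and 20.6 CPM against 14.5, 13.0 and 15.6 CPM, and Creb3l2 at 4.35, 16.3 and 7.34 CPM against 3.78, 3.08 and 2.74 CPM. DESeq2 called Creb3l2. In these 3 genes, as in Cblb, Null replicate 1 was nearest to WT and replicate 2 highest, the order of the summed cumulus markers. The part of somatic RNA in these genes was not tested.

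The oocyte's own programme showed no call. Of 37 tested members of oocyte-specific gene families, 19 lay above 0, and their log2 fold changes ran only from -0.11 to 0.21. Of 21 maternal-effect and subcortical complex genes, 10 lay above 0 (median -0.02). Ooep, a subunit of that complex, stood at 1266, 1393 and 1485 CPM in Null and 1023, 1060 and 1283 CPM in WT, which overlapped. Npm2, the nucleoplasmin that remodels sperm chromatin, stood at 322, 332 and 369 CPM against 383, 395 and 372 CPM, without overlap (adjusted p = 0.714). Of 11 oocyte transcription factors 9 lay above 0 (median 0.05), as did 9 of 13 zona pellucida and fertilization genes (median 0.05) and 7 of 14 paracrine factors and gap junction genes (median -0.004).

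Genes for meiosis, translation and decay had medians slightly below 0 and no call. Of 31 genes of the spindle checkpoint and chromosome segregation, 4 lay above 0 with a median of -0.08, but the median was 0.04 with Null replicate 1 as the lone Null library. Ttk, a spindle checkpoint kinase, stood at 389, 339 and 375 CPM in Null and 420, 406 and 402 CPM in WT, without overlap (adjusted p = 0.749). Of 32 genes of cAMP-dependent arrest and meiotic resumption, 10 lay above 0 (median -0.06). Cdc25b, the phosphatase that activates Cdk1 at resumption, stood at 30.8, 27.0 and 27.5 CPM against 34.6, 33.5 and 33.5 CPM. Of 23 dormant maternal mRNAs 6 lay above 0 (median -0.06, and 0.02 with Null replicate 1 alone). Of 26 genes of translational control 9 lay above 0 (median -0.05), where Cpeb4, which binds cytoplasmic polyadenylation elements, stood at 151, 138 and 140 CPM against 163, 163 and 164 CPM. Of 33 genes of deadenylation, decapping and decay 15 lay above 0 (median -0.03), where Tob1, which recruits the deadenylase, stood at 26.4, 35.2 and 33.4 CPM against 42.5, 42.2 and 39.4 CPM. Of 29 genes of DNA methylation and chromatin 6 lay above 0 (median -0.06). Over genes that reached 5 CPM, where most members of these lists lie, the median was -0.01 and 45.8% lay above 0.

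**Figure D5:**
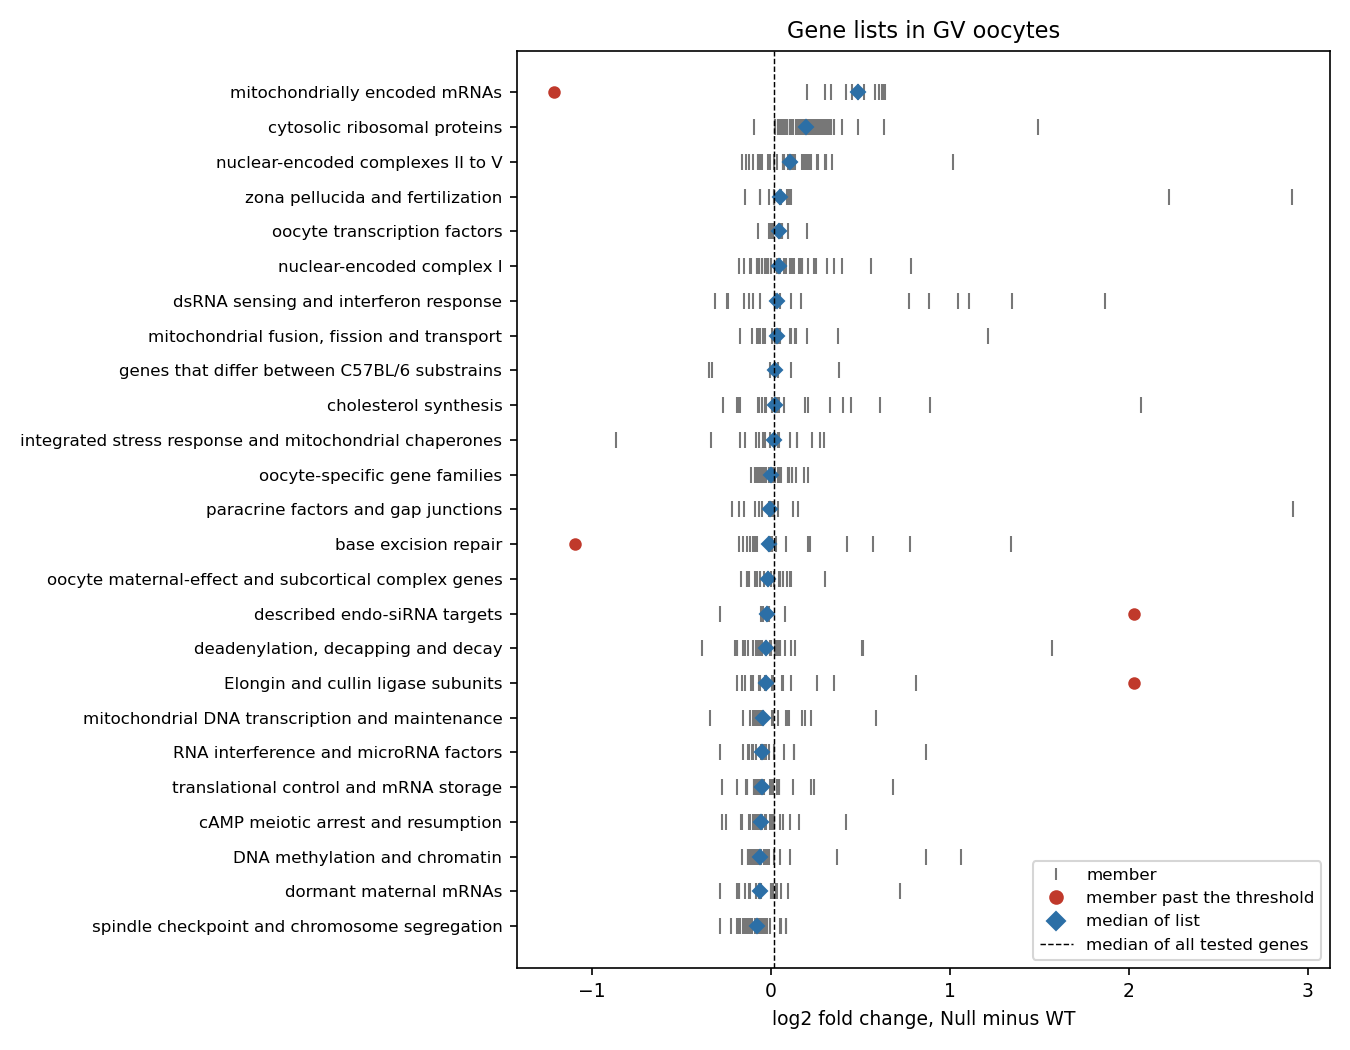
Log2 fold change (Null minus WT, GV oocytes) of the tested members of each gene list as ticks, with members past the threshold as round points, the median of each list as a diamond and the median of all genes as a dashed line. Medians of the oocyte, meiosis and translation lists lie between -0.08 and 0.05, ribosomal proteins at 0.20 and mitochondrial mRNAs at 0.49.

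Cytosolic ribosomal protein mRNAs lay above 0 in 78 of 79 cases, with a median of 0.20 and no call. Rpl37a stood at 31.5, 45.4 and 44.6 CPM in Null and 25.4, 22.3 and 30.6 CPM in WT, and Rpl22 at 42.2, 46.3 and 41.9 CPM against 36.8, 34.4 and 35.8 CPM. In 12 of 79 the Null libraries lay wholly above WT, against 6.83% of all genes. With Null replicate 1 as the lone Null library 51 of 79 lay above 0 and the median was 0.07, and with the cumulus marker level as a covariate 61 of 79 did and the median was 0.12. Of 23 cholesterol synthesis genes 14 lay above 0 (median 0.02) and none passed. Srebf2, their master transcription factor, stood at 23.7, 21.6 and 24.6 CPM in Null and 19.2, 17.4 and 18.96 CPM in WT, without overlap (adjusted p = 0.691).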

How the data were processed

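Polyadenylated RNA was amplified with the Ovation RNA-Seq V2 kit and sequenced as 65 bp single-end reads, per the labels' protocols. The deposited table holds raw counts per gene, which the authors did not normalize, for 54232 Ensembl genes, of which 54079 had a symbol. STAR 2.5.3a, bedtools 2.26.0 and GRCm38.p6 are named in the submitters' processing notes. How reads were counted, with which tool, strand setting and treatment of multi-mapping reads, is not given in the sources used here. Counts of all 13 libraries in 4 groups were fitted (edgeR 4.0.16, R 4.3.3, TMM, filterByExpr, glmQLFit robust, glmQLFTest, two-sided), with Benjamini-Hochberg adjustment over 20143 genes and a threshold of 0.05. Levels of single genes are TMM-scaled CPM computed from the counts, and SE is the log2 fold change over the root of F. Summed levels of marker lists and the detection limit are CPM over total counts, without TMM scaling. Covariate, DESeq2 1.42.0, scaling, filter, block and leave-one-out fits are given in the closing section. The scripts were tested on simulated data. Named were genes past the threshold, Sirena1 with 3 tested neighbours either side, Elob, Elobl, mitochondrial mRNAs, mt-Tr, Nnt, up to 12 genes per direction by p without overlap, up to 4 members per list, and genes called by DESeq2, by GV libraries alone or without GV Null replicate 1. Members and lists were chosen with earlier results of these data known. Promoters and coordinates are from RefSeq. Replicate numbers did not pair the samples. Of the called genes, 1 that fell is not reported here.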

Additional observations from a re-analysis of the deposited data

Results flagged for a closer look

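Zfp385b differed between the stages in its response to the genotype in the main fit. This call was lost with RLE scaling, with the cumulus marker level as a covariate and in most fits that left out a library. The MII effect minus the GV effect was -1.09 on the log2 scale (adjusted p = 0.0406, edgeR's quasi-likelihood test with Benjamini-Hochberg adjustment over 20143 genes), with all 3 GV Null libraries above all 3 GV WT libraries.

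Gm47601 had 1 MII Null library far from the other 3, at 2.11 CPM (replicate 4, 68 counts) against 0 counts in each of the others. Chance alone marks some groups of this size in this way.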

How the results depend on the processing

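Over 167 genes named or listed and 22 settings, no fold change that was called reversed, 50 calls were lost and 86 gained. The count of GV calls was 11. DESeq2 gave 27 (15 up, 12 down). Testing without a low-count filter gave 644 (600 up, 44 down). It was 3 with a minimum of 1.5-fold (Sirena1, Elob and Gm11598), 6 with the cumulus marker level as a covariate and 1 where Null replicate 1 stood alone, whose spread is then assumed to be that of the other groups. Leaving out 1 library gave 6 to 139 calls: 139 without GV Null replicate 1, and 6 when GV Null replicate 3 or either of WT replicates 1 and 2 was dropped. The other settings, RLE scaling, at least 5 CPM in a GV group and the GV libraries alone, gave 8 to 12. Alternatives that left out MII libraries were chosen after seeing the data and gave 10 to 13. The fit of GV libraries alone has no test of the difference between stages, and no theca or blood marker reached a group mean of 5 CPM, though Col3a1, Dcn and Acta2 did in Null replicate 2.

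The count of genes whose effect differed between the stages was 1. It was 0 with RLE scaling, with the replicate block, with a minimum of 1.5-fold, with the covariate and with GV Null replicate 1 alone (edgeR, 222 to 965 genes at an unadjusted p under 0.05), 2 with DESeq2 and 157 with no filter. Leaving out 1 library gave 0 to 1, with 494 to 1825 genes at an unadjusted p under 0.05.

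With the replicate block 11 genes passed, 9 of them among those above, and Gm8971 and Gm19248 were lost. Same-numbered Null and WT libraries deviated together with correlations of -0.186, 0.0269 and 0.139 over 10625 genes, so the numbers were not taken as pairs. Depth limits genes near 3 counts, such as Nnt and mt-Tr.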

Other observations

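Without GV Null replicate 1, 139 genes passed (0.666% of 20884 tested), of which 128 were not among the 11. Of these 128, 106 were higher and 22 lower in Null. The cumulus and granulosa markers Lhcgr, Inhba and Greb1 were among the higher ones. Inhba, a subunit of activin and inhibin, stood at 2.01, 33.5 and 27.3 CPM in Null replicates 1, 2 and 3 and 4.88, 3.71 and 1.90 CPM in WT. Cd81, a tetraspanin, stood at 2.58, 18.1 and 5.06 CPM against 1.90, 1.75 and 1.82 CPM. Hspg2, the basement membrane proteoglycan perlecan, stood at 0.147, 14.0 and 3.02 CPM against 0.918, 0.426 and 0.649 CPM. Gramd1b, a sterol transfer protein, stood at 0.835, 30.2 and 8.69 CPM against 2.51, 1.504 and 0.898 CPM, and Gm2a, a lysosomal lipid-binding protein, at 0.933, 20.2 and 4.56 CPM against 2.71, 0.952 and 0.848 CPM. In each of these genes Null replicate 2 was highest. All but Greb1 were taken from the newly called genes with the largest folds that reached 5 CPM. None of the 22 lower genes was among those named in this paragraph. Of 87 higher genes kept by the filter with all libraries, Null replicate 1 lay at or below the highest WT library in 60. These genes were chosen as passing only without Null replicate 1, so a value near WT in that library is partly fixed by the choice.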
